A study of Homo sapiens with 16 samples.

Results

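The platelet-derived growth factor (PDGF) family was examined in HMC3 cells, an immortalised human microglial line. The 7 members were the ligand genes PDGFA, PDGFB, PDGFC and PDGFD, the receptor genes PDGFRA and PDGFRB, and PDGFRL, which encodes a receptor-like protein. They were taken by symbol from a table of 25370 genes, and all 7 were among the 16004 genes that passed the filter on low counts. The family was chosen by the rise of PDGFB with 17β-estradiol (E2) in an earlier analysis of these same counts, so E2 against vehicle is described for every member without a test, and so are the interactions of E2 with each drug and all comparisons of PDGFB with vehicle.

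PDGF ligands are secreted as disulfide-linked dimers and act on receptor tyrosine kinases that pair on binding. PDGF-B binds the alpha and the beta receptor, PDGF-A and PDGF-C act mainly through the alpha receptor, and PDGF-D acts mainly through the beta receptor. PDGF-C and PDGF-D are released in a latent form and need cleavage by extracellular proteases, whereas PDGF-A and PDGF-B are processed inside the cell. In the brain, PDGF-B from endothelial cells recruits pericytes, which carry the beta receptor, and the alpha receptor marks oligodendrocyte precursors.

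The 16 libraries covered 8 conditions with 2 libraries each, and all cells were kept without serum and phenol red during treatment and were treated for 1 day. The conditions were vehicle, E2 at 0.1 nM, and 400 nM of ketamine, 2R6R-HNK or 2S6S-HNK, each drug also being given together with E2 at 0.1 nM. HNK is hydroxynorketamine, a metabolite of ketamine, and 2R6R-HNK and 2S6S-HNK are mirror images of each other. Separate cultures are not stated for the 2 libraries of each condition, so p-values measure only the spread between these libraries, which may be technical. The results hold for 1 line.

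Libraries held 55300614 to 81646165 counts. Of 12 microglial markers, 4 passed the filter, and the summed level of all 12 was 71.2 to 111 CPM (counts scaled to the size of the library). The defining markers AIF1, CX3CR1, P2RY12, TMEM119, ITGAM, PTPRC, SPI1 and TYROBP had at most 7 counts in any library. Of 10 fibroblast markers 7 passed, with a summed level of 7009 to 9928 CPM over the list, and all 6 pericyte markers passed, with 463 to 677 CPM. The family was therefore measured in a line with little RNA of these microglial markers. Fewer cells and less RNA per cell cannot be told apart in such libraries.

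Promoter sequences, defined here as the 250 bases before a transcription start, were matched in RefSeq (GRCh38.p14) for 4 of the 7 members, PDGFA, PDGFD, PDGFRA and PDGFRB. PDGFB, PDGFC and PDGFRL were not matched. Promoters of both receptors are shown because the receptors went in opposite directions as compared to vehicle. Of the 2 PDGFRA promoters the one farther upstream is shown, and 1 of the 4 PDGFA promoters is shown as the most GC-rich of the set. Capitals mark the letters GGGCGG of the SP1 motif or GCGNGGGCG of the EGR1 motif on either strand, and the motifs overlap in PDGFA. The sequences run 5′ to 3′ on the strand of the gene and lie at chr5:150155846-150156095 on the minus strand for PDGFRB, chr4:54229043-54229292 on the plus strand for PDGFRA and chr7:519847-520096 on the minus strand for PDGFA.
PDGFRB: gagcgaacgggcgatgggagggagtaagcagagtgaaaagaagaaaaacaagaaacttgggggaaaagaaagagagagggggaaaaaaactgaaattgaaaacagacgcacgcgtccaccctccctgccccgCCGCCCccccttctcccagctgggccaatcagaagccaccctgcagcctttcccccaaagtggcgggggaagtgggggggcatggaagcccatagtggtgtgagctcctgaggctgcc
PDGFRA: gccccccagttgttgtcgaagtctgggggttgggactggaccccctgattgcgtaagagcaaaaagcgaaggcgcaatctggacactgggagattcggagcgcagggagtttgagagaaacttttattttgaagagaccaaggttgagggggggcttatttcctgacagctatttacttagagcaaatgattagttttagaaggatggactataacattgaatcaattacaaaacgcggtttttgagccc
PDGFA: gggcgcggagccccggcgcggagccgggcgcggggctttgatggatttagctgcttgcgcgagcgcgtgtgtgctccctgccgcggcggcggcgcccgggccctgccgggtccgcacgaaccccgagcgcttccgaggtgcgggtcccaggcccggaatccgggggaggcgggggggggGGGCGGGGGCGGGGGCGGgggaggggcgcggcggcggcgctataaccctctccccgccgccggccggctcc
The PDGFRB promoter held 1 SP1 match and a GC content of 58.4%. The PDGFRA promoter shown held 0 matches of any motif searched and had a GC content of 46.8%, whereas the other PDGFRA promoter, at chr4:54233710-54233959, held 2 SP1 matches and had a GC content of 64.0%. The PDGFA promoter held 3 SP1 and 2 EGR1 matches and had a GC content of 81.6%. SP1 letters were present in 42.6% and EGR1 letters in 8.41% of 35116 promoters of this length. Both strands were searched. The STAT motif TTCNNNGAA, present in 6.57% of all promoters, and the palindromic oestrogen response element, present in 0.0399%, were not found in any of the 8 promoters of the 4 matched members.

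The receptor gene PDGFRB had the highest level of the family and PDGFD the lowest. Levels between genes were compared as CPM per kilobase of exon, averaged over all 16 libraries. PDGFRB stood at 37.04, PDGFC at 7.03, PDGFB at 3.45, PDGFRL at 3.25, PDGFA at 0.483, PDGFRA at 0.207 and PDGFD at 0.0766. Across single libraries, PDGFRB ranged from 27.4 to 41.1 CPM per kilobase and PDGFC from 5.59 to 8.77, so these ranges did not overlap with each other or with any other member. PDGFB ranged from 1.43 to 4.33 and PDGFRL from 2.35 to 4.42, and their ranges overlapped. PDGFA (0.356 to 0.595), PDGFRA (0.126 to 0.336) and PDGFD (0.0159 to 0.119) did not overlap. The beta receptor was thus the abundant receptor in these cells and PDGFC the abundant ligand. PDGFD rested on 4 to 43 counts per library, and the other members on at least 70.

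**Figure D1:**
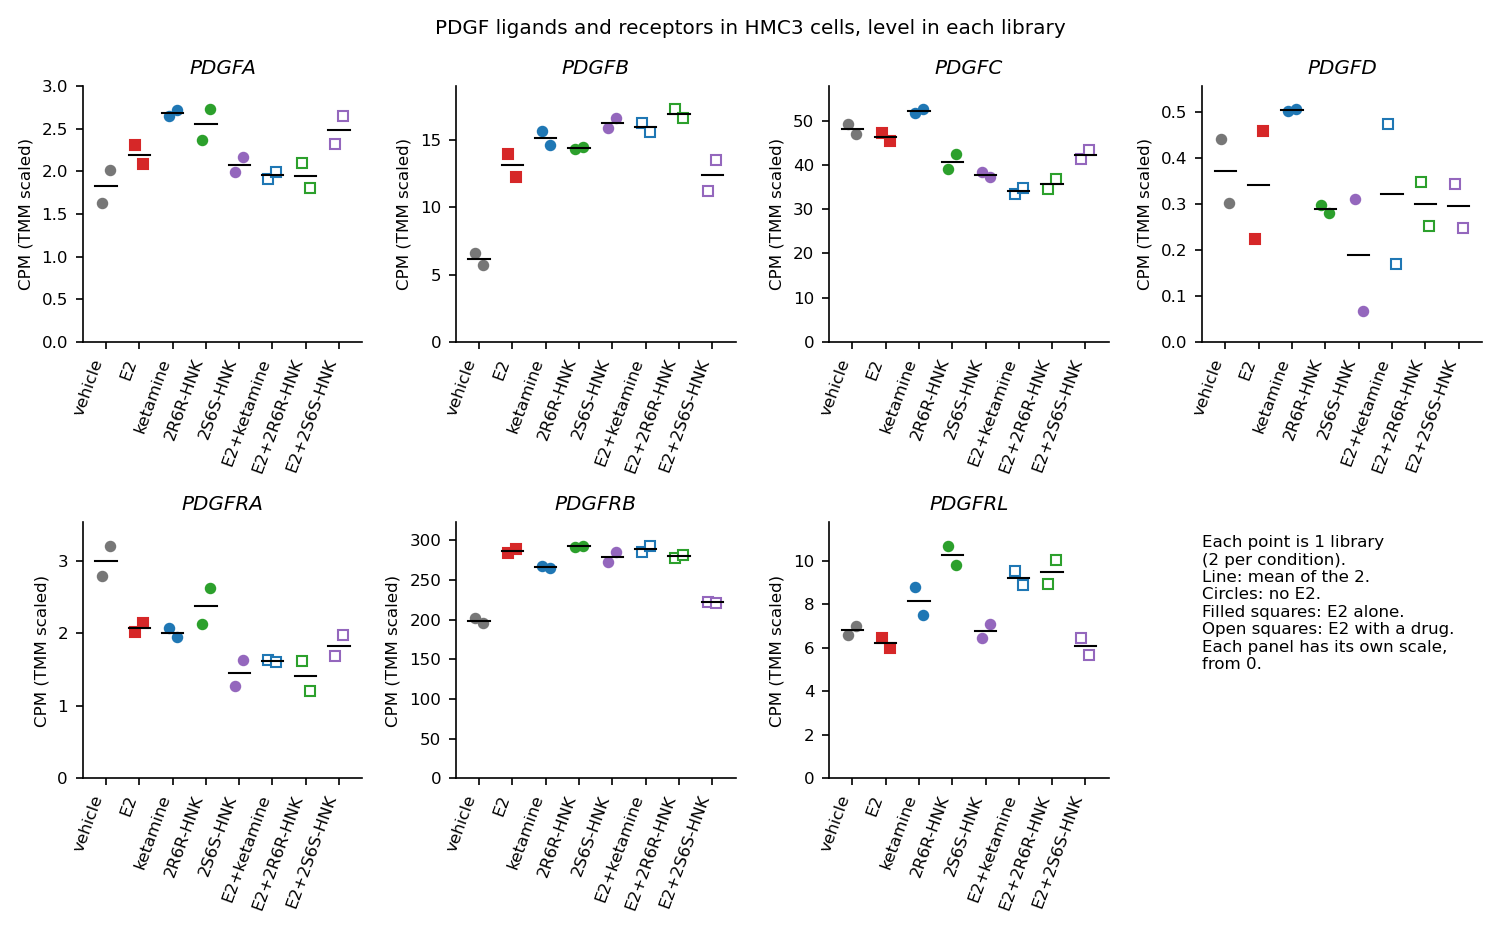
Level of each member in CPM (y axis, from 0, own scale per panel) in each library by condition (x axis), with points for single libraries and a line for the mean of 2. The vehicle libraries are the lowest of all for PDGFB (5.72 and 6.62 CPM) and PDGFRB (196 and 202 CPM) and the highest for PDGFRA (2.80 and 3.21 CPM).

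PDGFB, the ligand that binds both receptors, was higher than in vehicle in every treated library. The gene lies at chr22:39619364-39640987 (GRCh37, minus strand), and its exons have a GC content of 60.4%. Its level was 6.62 and 5.72 CPM in the vehicle libraries. With E2 it was 14.0 and 12.2 CPM, which is the rise the family was chosen by, a log2 fold change of 1.09 (SE 0.091). Ketamine libraries were at 15.7 and 14.6 CPM, 2R6R-HNK libraries at 14.3 and 14.5 CPM and 2S6S-HNK libraries at 15.9 and 16.6 CPM. In the presence of E2 the level was 16.2 and 15.6 CPM with ketamine, 17.3 and 16.6 CPM with 2R6R-HNK, and 11.2 and 13.5 CPM with 2S6S-HNK. The lowest treated library was therefore well above the highest vehicle library.

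As compared to vehicle, the fold of PDGFB was 2.45 with ketamine (log2 1.29, SE 0.088), 2.33 with 2R6R-HNK (log2 1.22, SE 0.09) and 2.63 with 2S6S-HNK (log2 1.397, SE 0.09). With E2 present it was 2.58 with ketamine, 2.74 with 2R6R-HNK and 1.99 with 2S6S-HNK. All of these comparisons share the 2 vehicle libraries with the E2 comparison that chose the gene, so they are given without a p-value and are not separate evidence that vehicle was low. When libraries were corrected for the GC content and exon length of genes, the log2 fold changes of PDGFB were 0.95, 0.75, 0.90, 0.72, 0.93 and 0.72 in the same order, and 0.69 with E2 alone. The correction removes any change that follows GC content, whether from the cells or from the libraries.

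PDGFC was the most abundant ligand gene, and its direction depended on the treatment and on the correction. The gene lies at chr4:157681606-157892951 (minus strand), with an exon GC content of 42.3%. Vehicle libraries were at 49.4 and 46.9 CPM and E2 libraries at 47.3 and 45.3 CPM, and these overlapped. Ketamine libraries were at 51.8 and 52.6 CPM, above all others, whereas 2R6R-HNK (39.2 and 42.4 CPM) and 2S6S-HNK (38.4 and 37.2 CPM) were below vehicle. Libraries with E2 and a drug were lower still for ketamine (33.5 and 34.8 CPM) and 2R6R-HNK (34.7 and 36.8 CPM), and stood at 41.3 and 43.3 CPM for 2S6S-HNK. As compared to vehicle, PDGFC rose with ketamine (log2 0.12, SE 0.047, adjusted p = 0.0265). It fell by 0.24 on the log2 scale with 2R6R-HNK (adjusted p = 1.66e-05), by 0.35 with 2S6S-HNK (adjusted p = 1.55e-08), by 0.49 with E2+ketamine (adjusted p = 8.41e-13), by 0.43 with E2+2R6R-HNK (adjusted p = 3.54e-11) and by 0.19 with E2+2S6S-HNK (adjusted p = 0.000668).

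After the GC content and length correction, none of these falls remained. PDGFC was then higher than in vehicle with ketamine (log2 0.38, adjusted p = 9.38e-12) and with 2R6R-HNK (log2 0.18, adjusted p = 0.000499), and the other log2 fold changes lay between -0.04 and 0.05 without a call. With upper-quartile scaling the fall with E2+2S6S-HNK was not called either (log2 -0.08, adjusted p = 0.136). The rise with ketamine was lost without ketamine replicate 1 (log2 0.13, adjusted p = 0.0628), without ketamine replicate 2 (log2 0.11, adjusted p = 0.123) or without vehicle replicate 2 (log2 0.08, adjusted p = 0.255). Over all alternatives its adjusted p ranged from 9.38e-12 to 0.255.

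PDGFA, the ligand of the alpha receptor, was low, at 100 to 227 counts per library. It lies at chr7:536895-559933 (minus strand) with the highest exon GC content of the family, 61.4%. Vehicle libraries were at 1.64 and 2.01 CPM, ketamine libraries at 2.65 and 2.72 CPM, 2R6R-HNK libraries at 2.37 and 2.73 CPM and E2+2S6S-HNK libraries at 2.32 and 2.64 CPM. These 3 treatments did not overlap with vehicle and passed the test, with log2 fold changes of 0.56 (SE 0.17, adjusted p = 0.00401), 0.48 (SE 0.175, adjusted p = 0.0146) and 0.44 (SE 0.174, adjusted p = 0.0267). E2 libraries were at 2.31 and 2.09 CPM, and the log2 fold change was 0.27 (SE 0.18), with 0.13 when vehicle replicate 1 was left out and -0.15 after the correction for GC content and length. The other treatments overlapped with vehicle at 1.801 to 2.17 CPM. Without vehicle replicate 1, the lower of the pair, none of the 3 rises was called (log2 0.42 with ketamine, 0.33 with 2R6R-HNK and 0.30 with E2+2S6S-HNK). The rise with 2R6R-HNK was also lost without 2R6R-HNK replicate 2 (log2 0.38), and the rise with E2+2S6S-HNK without E2+2S6S-HNK replicate 2 (log2 0.35) and with DESeq2 (adjusted p = 0.0531). After the GC content and length correction none of the 3 was called, at log2 0.20, -0.02 and 0.14, and PDGFA was lower than vehicle with E2+ketamine (log2 -0.58, adjusted p = 0.00695) and E2+2R6R-HNK (log2 -0.46, adjusted p = 0.0243).

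PDGFD, a ligand of the beta receptor, had too few counts for a small difference to be detectable. It lies at chr11:103777917-104035107 (minus strand), where 193 exonic bases overlap DDI1 on the other strand, a gene with 0 counts in all libraries. Its level was 0.441 and 0.302 CPM in vehicle and 0.502 and 0.506 CPM with ketamine, and the lowest library was 2S6S-HNK replicate 2 at 0.0679 CPM. No comparison with vehicle was called, and the 95% intervals of the log2 fold changes were wide, for example -0.54 to 1.41 with ketamine. Without 2S6S-HNK replicate 1, PDGFD was called lower with 2S6S-HNK (log2 -2.43, adjusted p = 0.0106), against a log2 fold change of -0.99 (adjusted p = 0.126) with both libraries.

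PDGFRB, which encodes the beta receptor, was higher than in vehicle in every treated library. The gene lies at chr5:149493402-149535435 (minus strand), with an exon GC content of 57.6%. Vehicle libraries were at 202 and 196 CPM. E2 libraries were at 285 and 289 CPM, ketamine libraries at 268 and 265 CPM, 2R6R-HNK libraries at 291 and 293 CPM and 2S6S-HNK libraries at 273 and 285 CPM. E2+ketamine libraries were at 285 and 293 CPM and E2+2R6R-HNK libraries at 278 and 281 CPM. E2+2S6S-HNK libraries were the nearest to vehicle, at 223 and 221 CPM. The log2 fold change with E2 was 0.53 (SE 0.027), given as a description. PDGFRB rose with ketamine (log2 0.42, SE 0.026, adjusted p = 2.5e-19), 2R6R-HNK (log2 0.56, SE 0.027, adjusted p = 4.26e-24), 2S6S-HNK (log2 0.49, SE 0.027, adjusted p = 5.68e-22), E2+ketamine (log2 0.54, adjusted p = 5.53e-24) and E2+2R6R-HNK (log2 0.49, adjusted p = 2.4e-22), and less with E2+2S6S-HNK (log2 0.16, adjusted p = 1.03e-06).

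With its high counts PDGFRB was measured closely, but the size of its rise depended on the correction. After the GC content and length correction it was 0.11 with ketamine (adjusted p = 1.93e-05), 0.17 with 2R6R-HNK (adjusted p = 2.85e-10) and 0.07 with 2S6S-HNK (adjusted p = 0.00745). With E2 alone it was 0.19. The correction left log2 fold changes of 0.01 with E2+ketamine and 0.02 with E2+2R6R-HNK, which were not called, and turned the direction with E2+2S6S-HNK (log2 -0.07, adjusted p = 0.00932). Markers of pericytes, cells that carry the beta receptor, were measured beside it. All 6 passed the filter, none was at 0 in all libraries, and their summed level was 464 to 468 CPM in vehicle, 590 to 596 CPM with E2, 525 to 535 CPM with ketamine, 557 to 561 CPM with 2R6R-HNK, 544 to 572 CPM with 2S6S-HNK, 664 to 677 CPM with E2+ketamine, 543 to 549 CPM with E2+2R6R-HNK and 463 to 474 CPM with E2+2S6S-HNK. The 10 fibroblast markers, of which 7 passed, summed to 7368 to 7429 CPM in vehicle, 8738 to 8791 CPM with E2, 7417 to 7534 CPM with ketamine, 8868 to 8915 CPM with 2R6R-HNK, 8119.7 to 8616 CPM with 2S6S-HNK, 9655 to 9928 CPM with E2+ketamine, 8476 to 8607 CPM with E2+2R6R-HNK and 7009 to 7311 CPM with E2+2S6S-HNK, with COL3A1, LUM and DCN at no more than 12 counts. Vehicle and E2+2S6S-HNK were thus the lowest for the summed pericyte markers as for PDGFRB. MCAM made up most of that sum, at 335.7 CPM in vehicle and 289.1 CPM with E2+2S6S-HNK (means of 2), and single markers went other ways. RGS5 was highest in vehicle (1.95 CPM) and next with E2+2S6S-HNK (1.46 CPM), and NOTCH3 was at 47.1 CPM in vehicle and 88.4 CPM with E2+2S6S-HNK. The summed level of microglial markers went the other way, at 108 to 111 CPM in vehicle and 106 to 107 CPM with E2+2S6S-HNK, and 71.2 to 93.8 CPM in the other conditions. Of the 4 tested, 0 to 2 were called higher and 0 to 2 lower as compared to vehicle. The part of these marker lists in the result was not tested.

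PDGFRA, which encodes the alpha receptor, was low and was highest in vehicle. It lies at chr4:55095447-55164412 (plus strand) with an exon GC content of 43.0%, and 1533 exonic bases are shared with a readthrough gene, ENSG00000282278, on the same strand that has no row of its own in the table. Libraries held 70 to 191 counts. Vehicle was at 2.80 and 3.21 CPM, E2 at 2.02 and 2.14 CPM, ketamine at 2.07 and 1.95 CPM, 2R6R-HNK at 2.13 and 2.62 CPM and 2S6S-HNK at 1.28 and 1.63 CPM. With E2, ketamine libraries were at 1.64 and 1.60 CPM, 2R6R-HNK libraries at 1.62 and 1.201 CPM and 2S6S-HNK libraries at 1.68 and 1.98 CPM. No treated library reached the vehicle libraries. PDGFRA fell by 1.04 on the log2 scale with 2S6S-HNK (SE 0.194, adjusted p = 5.26e-06) and by 1.08 with E2+2R6R-HNK (SE 0.188, adjusted p = 1.32e-06), to a fold of 0.486 and 0.472 of vehicle. It also fell with E2+ketamine (log2 -0.89, adjusted p = 4.59e-05), E2+2S6S-HNK (log2 -0.72, adjusted p = 0.000628) and ketamine (log2 -0.58, adjusted p = 0.00442), and the log2 fold change was -0.35 with 2R6R-HNK (adjusted p = 0.0854).

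After the GC content and length correction the falls with 2S6S-HNK (log2 -0.68, adjusted p = 0.00207), E2+2R6R-HNK (log2 -0.73, adjusted p = 0.00058) and E2+2S6S-HNK (log2 -0.53, adjusted p = 0.0109) remained called. Those with ketamine (log2 -0.36, adjusted p = 0.0897) and E2+ketamine (log2 -0.355, adjusted p = 0.115) were lost, and 2R6R-HNK stood at 0.075 (adjusted p = 0.771). The fall of PDGFRA with ketamine was also lost without vehicle replicate 2 (log2 -0.48, adjusted p = 0.063), and a fall with 2R6R-HNK was called without 2R6R-HNK replicate 2 (log2 -0.50, adjusted p = 0.0438).

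PDGFRL, a receptor-like gene whose protein has no kinase domain, had its highest mean with 2R6R-HNK, whose libraries overlapped with those of E2+2R6R-HNK. It lies at chr8:17433942-17501580 (plus strand), with an exon GC content of 49.0%, the middle of the family. Vehicle libraries were at 6.60 and 6.999 CPM, and E2 libraries at 6.44 and 5.99 CPM. The level was 10.7 and 9.83 CPM with 2R6R-HNK, 8.82 and 7.51 CPM with ketamine and 6.46 and 7.07 CPM with 2S6S-HNK. Together with E2 it was 9.53 and 8.90 CPM with ketamine, 8.92 and 10.1 CPM with 2R6R-HNK and 6.45 and 5.69 CPM with 2S6S-HNK. Libraries with ketamine or 2R6R-HNK were above vehicle with and without E2, those with 2S6S-HNK overlapped with vehicle, and those with E2+2S6S-HNK were below it. PDGFRL rose with 2R6R-HNK (log2 0.60, SE 0.1, adjusted p = 6.59e-07), E2+2R6R-HNK (log2 0.48, SE 0.1, adjusted p = 3.07e-05), E2+ketamine (log2 0.44, SE 0.102, adjusted p = 0.000144) and ketamine (log2 0.26, SE 0.1, adjusted p = 0.02). With 2S6S-HNK the log2 fold change was -0.01 (95% interval -0.22 to 0.21) and with E2+2S6S-HNK -0.16 (95% interval -0.37 to 0.05). Unlike the other members, PDGFRL hardly moved under the GC content and length correction, at log2 0.57, 0.49, 0.45 and 0.26 for the 4 rises, all called. The rise with ketamine was not called without ketamine replicate 1 (log2 0.14, adjusted p = 0.339) or vehicle replicate 1 (log2 0.22, adjusted p = 0.133). The gene shares 277 exonic bases with MTUS1 on the other strand, which had 132 to 301 counts per library, and whether the counting used strand is not stated.

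**Figure D2:**
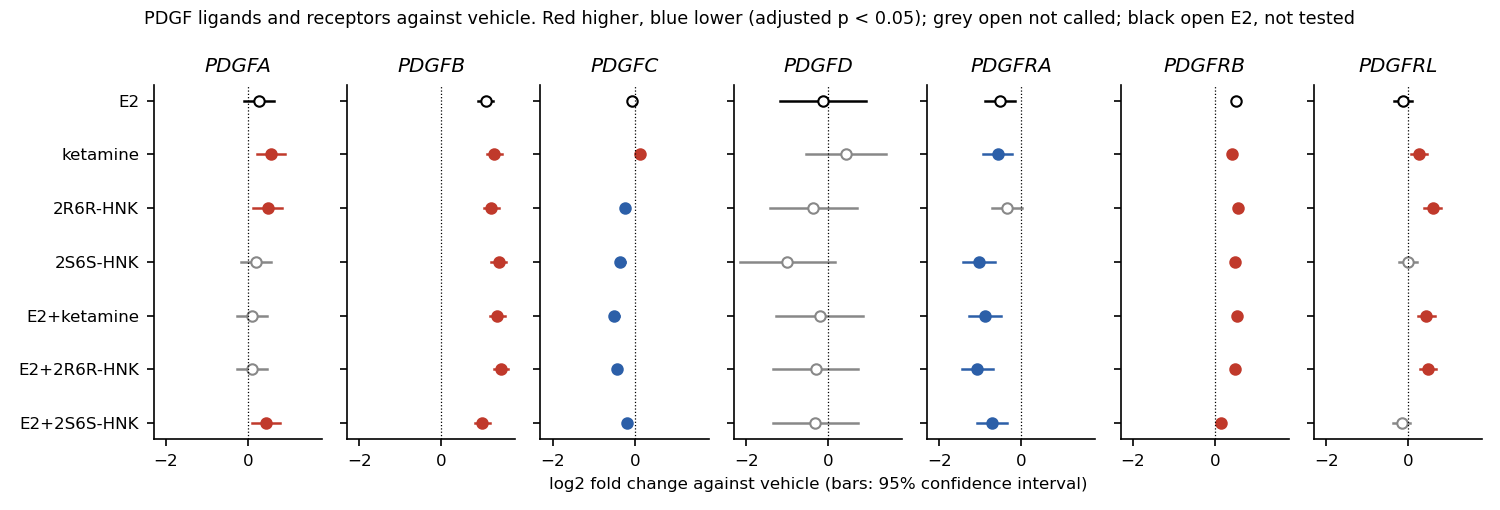
Log2 fold change against vehicle (x axis) with its 95% confidence interval for each member (panels) and treatment (y axis). Before any GC content correction, PDGFB and PDGFRB lie above 0 and PDGFRA below 0 in every treatment (after it PDGFRB turns to -0.065 with E2+2S6S-HNK and PDGFRA to 0.075 with 2R6R-HNK), and the PDGFD intervals span 0 throughout.

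**Figure D3:**
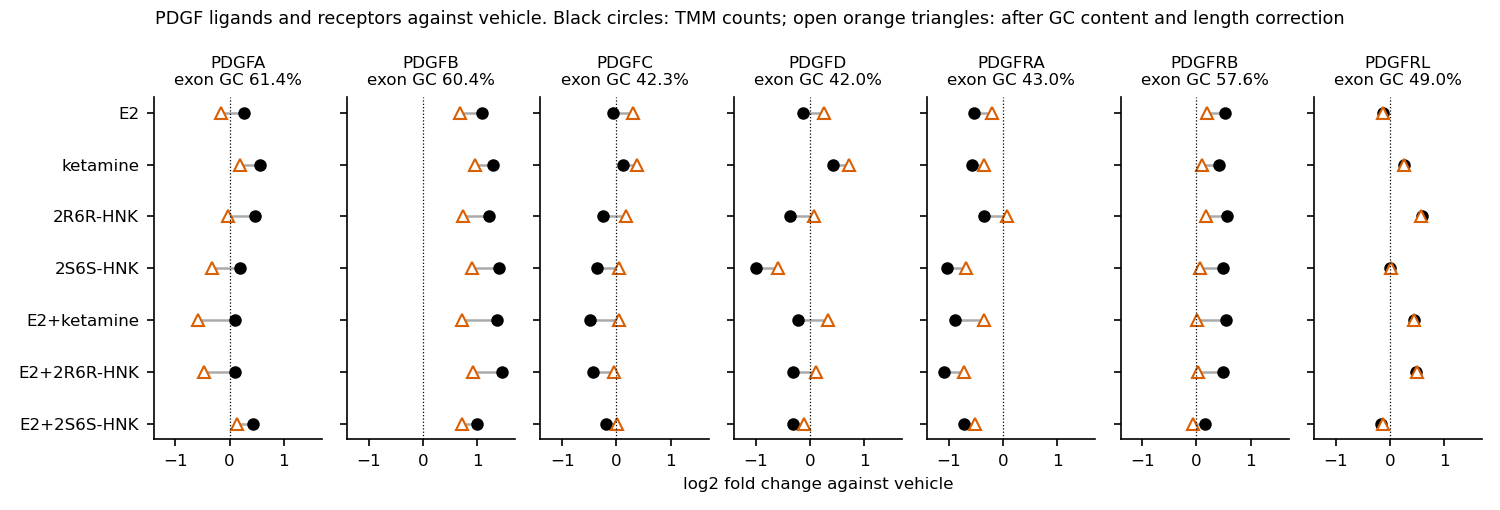
Log2 fold change against vehicle (x axis) by treatment (y axis) before (circles) and after (triangles) the GC content and length correction, with the exon GC content of each member in its title. Members with 57.6% GC or more move down, those with 43.0% or less move up, and PDGFRL at 49.0% stays in place.

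How many members were called is read against all genes, since a large share of genes was called in each comparison. PDGFB is described without a test but is 1 of the higher members in each count, so each is read with 1 higher member fewer. In every comparison below, some call of a member was lost or turned under the GC content and length correction. With ketamine 5 of 7 members were higher and 1 lower, where 26.8% of all genes were higher and 32.5% lower. With 2R6R-HNK 4 were higher and 1 lower (31.7% and 34.9% of all genes), and with 2S6S-HNK 2 were higher and 2 lower (32.1% and 35.8%). With each E2 combination 3 were higher and 2 lower, where the shares of all genes were 34.3% and 37.4% for E2+ketamine, 33.4% and 36.3% for E2+2R6R-HNK, and 24.0% and 35.7% for E2+2S6S-HNK. Larger changes, called and with a log2 fold change of 1 or more up or down, were seen for PDGFRA among the tested members. PDGFRA passed this limit with 2S6S-HNK and E2+2R6R-HNK, where 9.08% and 11.5% of all genes did. No tested member passed it with ketamine, 2R6R-HNK, E2+ketamine or E2+2S6S-HNK, where 3.56%, 3.75%, 11.0% and 5.85% of genes did. PDGFB, described without a test, had a log2 fold change of 0.995 with E2+2S6S-HNK and of above 1 in the other comparisons.

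The drugs were then compared with each other at the same dose and time, in 3 pairs without E2 and 3 with E2. Ketamine and 2R6R-HNK, the parent drug and one metabolite, differed in 3 members, where 45.4% of all genes differed. PDGFC was higher with ketamine (log2 0.36, SE 0.047, adjusted p = 7e-09), and PDGFRB (log2 -0.13, SE 0.026, adjusted p = 2.47e-05) and PDGFRL (log2 -0.33, SE 0.094, adjusted p = 0.00293) were lower with it. The PDGFC and PDGFRB differences were called under every alternative run, at 0.20 and -0.06 after the GC content and length correction, which called 5 members, whereas the PDGFRL difference was lost without 2R6R-HNK replicate 1 (log2 -0.27) or ketamine replicate 2 (log2 -0.22). PDGFB differed by 0.07 on the log2 scale (95% interval -0.09 to 0.23, adjusted p = 0.508), and by 0.21 after the GC content and length correction, where it was called (adjusted p = 0.0238, against a range of 0.0238 to 0.919 over the alternatives). With E2 present, 0 of 7 members differed between these drugs by edgeR, where 52.0% of all genes did. No member had an unadjusted p under 0.05 (the smallest was 0.0801, for PDGFRB), and DESeq2 called 1. The interval for PDGFB there was -0.25 to 0.07, and after the GC content and length correction PDGFB was lower with E2+ketamine (log2 -0.21, adjusted p = 0.0158, against a range of 0.0158 to 0.63 over the alternatives).

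Ketamine and 2S6S-HNK differed in 5 members without E2, where 46.1% of all genes differed. PDGFC was higher with ketamine (log2 0.47, SE 0.048, adjusted p = 1.24e-11) under every alternative run. The other 4 calls were close to the threshold, namely PDGFD (log2 1.43, SE 0.543, adjusted p = 0.0269), PDGFRL (log2 0.27, SE 0.1, adjusted p = 0.024) and PDGFRA (log2 0.46, SE 0.196, adjusted p = 0.0477), higher with ketamine, and PDGFRB (log2 -0.07, SE 0.026, adjusted p = 0.0326), lower. With the GC content and length correction PDGFRB turned to 0.041 (adjusted p = 0.119) and PDGFRA was at 0.32 without a call (adjusted p = 0.199), while PDGFC, PDGFD and PDGFRL remained called. DESeq2 called 2 members in this pair, and 1 to 3 were called when a ketamine or 2S6S-HNK library was left out. Without 2S6S-HNK replicate 2 the PDGFD difference was 0.70 and the PDGFRB difference -0.03, and without 2S6S-HNK replicate 1 the PDGFRA difference was 0.31 and the PDGFRL difference 0.21. The latter was 0.15 without ketamine replicate 1. PDGFB differed by -0.11 (95% interval -0.26 to 0.05, adjusted p = 0.289).

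The mirror images 2R6R-HNK and 2S6S-HNK differed in 3 members, where 43.5% of all genes differed. PDGFRL was higher with 2R6R-HNK (log2 0.60, SE 0.1, adjusted p = 1.96e-06) under every alternative run, and its log2 difference was 0.56 after the GC content and length correction. PDGFRA was higher too (log2 0.69, SE 0.197, adjusted p = 0.00323), and at 0.75 after the correction, but was not called without 2R6R-HNK replicate 2 (log2 0.55, adjusted p = 0.0597) or 2S6S-HNK replicate 1 (log2 0.54, adjusted p = 0.0693). PDGFRB differed by 0.07 (SE 0.026, adjusted p = 0.0352), lost without 2S6S-HNK replicate 1 (log2 0.04) or either 2R6R-HNK library. PDGFB was at -0.17 (95% interval -0.34 to -0.01, adjusted p = 0.0733).

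Among cells given E2, 2S6S-HNK was compared with both other drugs. E2+ketamine and E2+2S6S-HNK differed in 4 of 7 members, where 66.8% of all genes differed, and E2+2R6R-HNK and E2+2S6S-HNK also in 4, where 54.0% did, so the counts were near or below those of all genes. PDGFB (log2 0.46, SE 0.079, adjusted p = 1.71e-06), PDGFRB (log2 0.33, SE 0.026, adjusted p = 2.34e-15) and PDGFRL (log2 0.64, SE 0.099, adjusted p = 2.43e-07) were higher with E2+2R6R-HNK than with E2+2S6S-HNK, and remained so after the GC content and length correction at 0.21, 0.09 and 0.62. PDGFC was lower (log2 -0.24, adjusted p = 2.35e-05), with -0.05 after the correction and no call. E2+ketamine showed the same 4 members and directions against E2+2S6S-HNK, with log2 differences of 0.37 for PDGFB (adjusted p = 6.95e-05), 0.38 for PDGFRB (adjusted p = 4.29e-18), 0.60 for PDGFRL (adjusted p = 8.97e-07) and -0.31 for PDGFC (adjusted p = 3.05e-07). After the correction the PDGFB difference was 0.000 and the PDGFC difference 0.04, neither called, while PDGFRB (0.075) and PDGFRL (0.57) remained called. These 2 comparisons share the E2+2S6S-HNK libraries. With 1 library left out, the PDGFB difference between E2+ketamine and E2+2S6S-HNK ranged from 0.236 to 0.504.

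E2 was next examined within each drug, a comparison that uses neither vehicle nor E2 alone. When ketamine was present, E2 changed 3 members, where 57.5% of all genes changed. PDGFC fell by 0.61 on the log2 scale (SE 0.048, adjusted p = 7.9e-16), under every alternative run and by 0.33 after the GC content and length correction. PDGFA fell by 0.46 (SE 0.169, adjusted p = 0.0173), not called without E2+ketamine replicate 1 (log2 -0.43), without ketamine replicate 2 (log2 -0.44) or with DESeq2 (adjusted p = 0.0602), and by 0.78 after the correction (adjusted p = 0.000117). PDGFRB rose by 0.12 (SE 0.026, adjusted p = 0.00011), which turned to -0.10 after the correction. PDGFB was at 0.07 (95% interval -0.08 to 0.23, adjusted p = 0.45), and at -0.24 after the correction (adjusted p = 0.00816, against a range of 0.00816 to 0.878 over the alternatives).

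When 2R6R-HNK was present, E2 changed 4 members, where 47.9% of all genes changed. PDGFB rose from 14.3 and 14.5 CPM to 17.3 and 16.6 CPM (log2 0.23, SE 0.078, adjusted p = 0.0108), not called without 2R6R-HNK replicate 1 (log2 0.23, adjusted p = 0.0666) or E2+2R6R-HNK replicate 1 (log2 0.21, adjusted p = 0.0841). PDGFRA fell by 0.74 (SE 0.191, adjusted p = 0.00112), and was at -0.54 without E2+2R6R-HNK replicate 2 (adjusted p = 0.0516). PDGFC fell by 0.19 (adjusted p = 0.00109), and was at -0.13 without 2R6R-HNK replicate 2 (adjusted p = 0.0624). PDGFRB was lower by a log2 difference of -0.06 (adjusted p = 0.0437), which was lost when any of the 4 libraries was left out, with values from -0.07 to -0.05, and with no filter, a stricter filter or upper-quartile scaling. After the GC content and length correction all 4 were called in the same direction.

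When 2S6S-HNK was present, E2 changed 3 members, where 51.3% of all genes changed. PDGFB fell from 15.9 and 16.6 CPM to 11.2 and 13.5 CPM (log2 -0.40, SE 0.081, adjusted p = 3.37e-05). Its rise with E2 alone chose the family, so the difference from that rise was not tested. With 1 library left out the fall ranged from -0.535 to -0.267. The fall was at -0.18 and not called after the GC content and length correction (adjusted p = 0.0724, against a range of 1.99e-06 to 0.077 over the alternatives). PDGFRB fell by 0.33 (SE 0.026, adjusted p = 5.53e-15), and by 0.13 after the correction. PDGFC rose by 0.16 (SE 0.049, adjusted p = 0.00467), was at -0.03 after the correction, and was not called without 2S6S-HNK replicate 2 (log2 0.14) or E2+2S6S-HNK replicate 2 (log2 0.13).

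**Figure D4:**
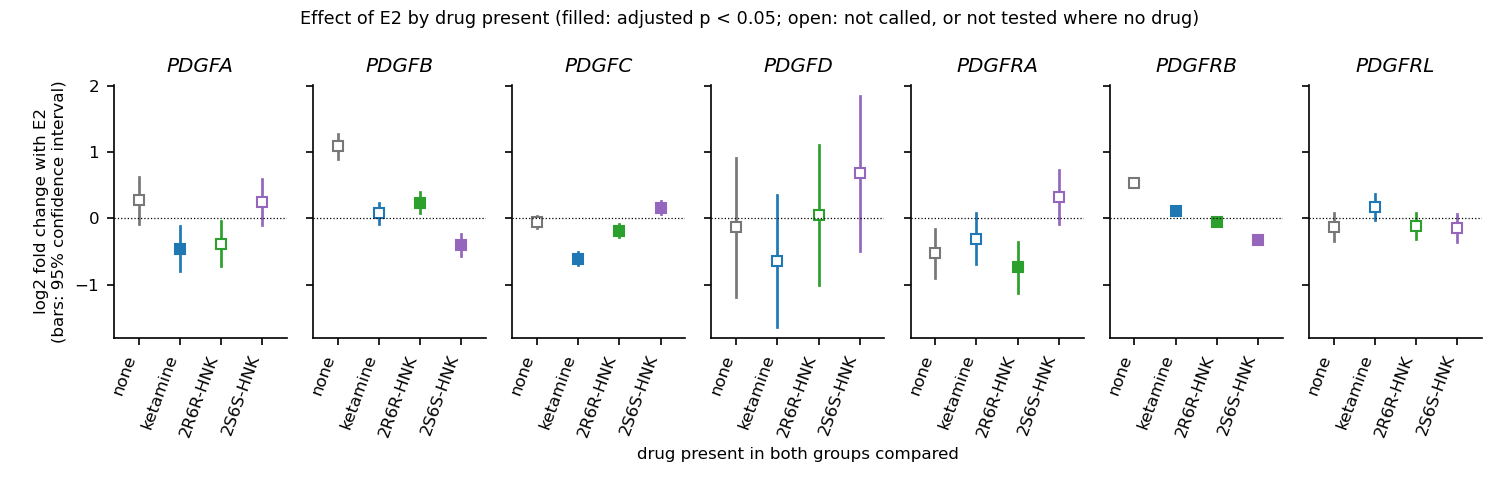
Log2 fold change with E2 (y axis, 95% confidence interval) when no drug, ketamine, 2R6R-HNK or 2S6S-HNK was present in both groups (x axis), for each member. The rise of PDGFB and PDGFRB with E2 alone (1.09 and 0.53) is smaller or turned with each drug. The family was chosen by the PDGFB value with E2 alone, so smaller values elsewhere are no result. With the GC content and length correction the values with E2 alone are 0.69 and 0.19.

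How the effect of E2 depended on the drug was measured as an interaction, the log2 effect of E2 with the drug minus its effect without. Each interaction holds the contrast that chose the family, so the values are given without a p-value and nothing is read from their calls. PDGFRB was at -0.41 for ketamine, -0.59 for 2R6R-HNK and -0.86 for 2S6S-HNK (SE 0.037 for each), and at -0.28, -0.34 and -0.32 after the GC content and length correction. The 3 interactions subtract the same E2 effect, 0.53 for PDGFRB, measured in the same vehicle and E2 libraries, so their common sign is not a separate result for each drug. PDGFB was at -1.01 for ketamine, -0.85 for 2R6R-HNK and -1.49 for 2S6S-HNK, and at -0.93, -0.51 and -0.87 after the correction. Among the 6 members other than PDGFB, 3 were called for ketamine (37.5% of all genes), 2 for 2R6R-HNK (56.6%) and 3 for 2S6S-HNK (65.1%). These counts are listed only as a description. They cannot test the members, because every term holds the contrast that chose the family, and no conclusion is drawn from them. PDGFC was at -0.56 with ketamine (SE 0.068), and at -0.64 after the correction. With 2S6S-HNK, PDGFC was at 0.22 (SE 0.069), which turned to -0.335 after the correction. PDGFRA was at 0.85 with 2S6S-HNK (SE 0.272), and at 0.36 after the correction. PDGFA was at -0.73 with ketamine (SE 0.247), and at -0.59 without vehicle replicate 1. With 2R6R-HNK it was at -0.65 (SE 0.247), at -0.51 without vehicle replicate 1 and at -0.29 after the correction.

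The balance within the family was different in vehicle and in treated libraries. PDGFB made up 11.4% and 10.4% of the counts of the 4 ligand genes in vehicle, and 20.3% to 31.8% in the 14 treated libraries. The share was 31.1% and 29.7% with E2+ketamine and 31.8% and 30.0% with E2+2R6R-HNK, the highest conditions, where PDGFB was high and PDGFC low. Per kilobase, PDGFRB exceeded PDGFRA by a ratio of 96.7 and 81.7 in vehicle and of 150 to 314 in treated libraries. The ratio was 286 and 235 with 2S6S-HNK and 177 and 150 with E2+2S6S-HNK. Treated libraries did not overlap with vehicle in either measure as counted, which is given as a description without a test. The share contains the PDGFB values that chose the family. Both measures set genes of unlike GC content against each other. The share itself was not corrected. The GC content and length correction made the receptor difference and that of PDGFB and PDGFC smaller. PDGFB minus PDGFA, genes of similar GC content, hardly moved, from between 0.555 and 1.36 to between 0.574 and 1.394. The log2 change of PDGFRB minus that of PDGFRA went from 0.90 to 0.097 with 2R6R-HNK, from 1.43 to 0.37 with E2+ketamine and, over all 7 treatments, from between 0.88 and 1.58 to between 0.097 and 0.75. PDGFB minus PDGFC went from between 1.14 and 1.89 to between 0.39 and 0.97.

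**Figure D5:**
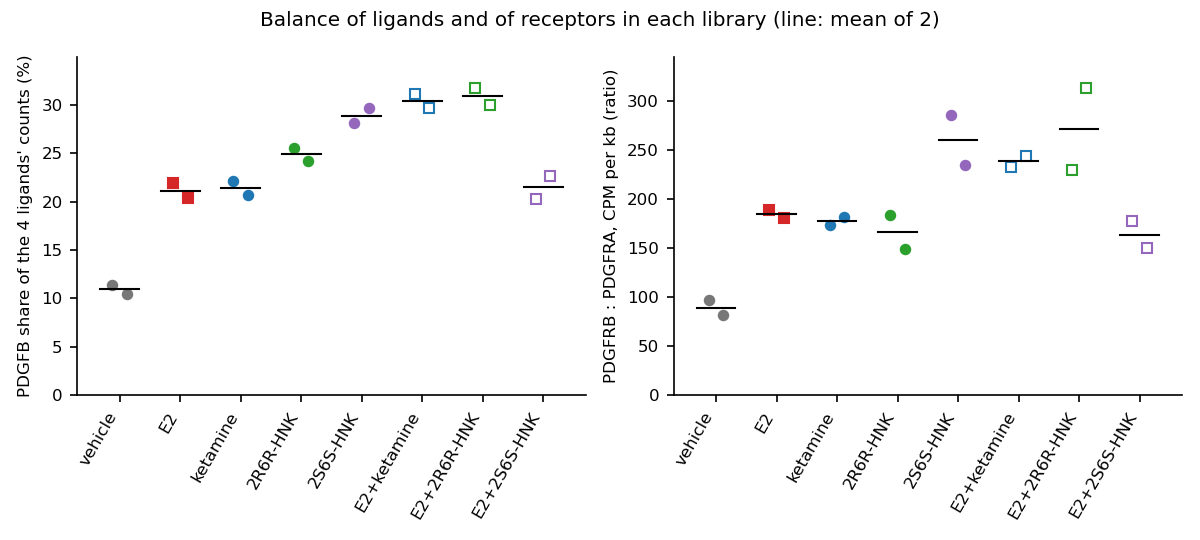
Share of PDGFB in the counts of the 4 ligand genes (left, %) and ratio of PDGFRB to PDGFRA in CPM per kilobase (right) in each library by condition, with a line for the mean of 2. Vehicle is lowest in both, at 10.4% and 11.4% and at 81.7 and 96.7, in values not corrected for GC content, a correction that lowers the change of the receptor ratio with 2R6R-HNK from 0.90 to 0.097 on the log2 scale.

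Genes of the wider pathway were counted from lists chosen for their role, and no list was tested as a set. As compared to vehicle, 24.0% to 34.3% of all genes were called higher and 32.5% to 37.4% lower over the 6 comparisons. Of 22 signal relay genes, all tested, 7 were higher and 12 lower with ketamine, 8 and 14 with 2R6R-HNK, 8 and 12 with 2S6S-HNK, 8 and 14 with E2+ketamine, 9 and 12 with E2+2R6R-HNK, and 5 and 14 with E2+2S6S-HNK. The list's median log2 fold change lay between -0.41 and -0.17, where the median of all genes lay between -0.06 and -0.02. PTPN11, which encodes the phosphatase SHP2, fell in all 6 comparisons, from -1.23 with E2+ketamine (SE 0.028, adjusted p = 3.24e-37) to -0.72 with E2+2S6S-HNK. RASA1, a Ras GTPase-activating protein that binds the beta receptor, fell in all 6 (log2 -1.10 to -0.59), as did PIK3R1, the regulatory subunit of PI3-kinase (log2 -1.02 to -0.57). STAT5A rose in all 6 (log2 0.65 to 1.24). After the GC content and length correction these 4 kept their directions and calls, except PIK3R1 with E2+ketamine (log2 -0.21, adjusted p = 0.0729). The counts of the signal relay list do not hold under the correction. All 22 genes were called with E2+ketamine before it, and several were not after it. The medians are of uncorrected values.

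Of 18 genes known to be induced by PDGF, all tested, 7 were higher and 5 lower with ketamine, 10 and 3 with 2R6R-HNK, 6 and 5 with 2S6S-HNK, 10 and 3 with E2+ketamine, 7 and 5 with E2+2R6R-HNK, and 3 and 8 with E2+2S6S-HNK, with medians between -0.15 and 0.42. The immediate-early genes FOS (log2 1.05 to 1.69) and FOSB (log2 1.17 to 1.88) rose in all 6 and also after the correction. EGR1, another immediate-early gene, rose in all 6 (log2 0.13 to 1.09), but was at 0.075 without a call with ketamine and at -0.32 with E2+ketamine after the correction. HAS2, a hyaluronan synthase, fell in all 6 (log2 -1.52 to -0.35), and after the correction in the comparisons with ketamine (-1.05), 2R6R-HNK (-0.84) and E2+ketamine (-0.70). After the correction FOSL1, JUN, IER2, CCND1 and ODC1 were called lower in all 6 (log2 -1.24 to -0.176). The counts of this list thus do not hold under the correction.

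Of 4 extracellular partners tested, 1 was higher and 1 lower with ketamine, 1 and 3 with E2+ketamine, and 2 and 2 in each of the other 4 comparisons. LRP1, an endocytic receptor that binds PDGF, and SPARC, a matrix protein that binds PDGF, are named beyond the rule for list genes. LRP1 rose in all 6 (log2 0.51 to 0.96, and 0.12 to 0.43 after the correction). SPARC rose with 2R6R-HNK, 2S6S-HNK, E2+2R6R-HNK and E2+2S6S-HNK (log2 0.16 to 0.40, and 0.23 to 0.44 after the correction), and its fall with E2+ketamine (log2 -0.08) turned to 0.041. THBS1, a matrix protein that binds PDGF, fell in all 6 comparisons, with log2 fold changes of -1.13 with 2S6S-HNK, -1.18 with E2+2R6R-HNK and -1.19 with E2+2S6S-HNK. With 2R6R-HNK its fall of 0.14 turned to a rise of 0.11 after the correction. NRP1, a co-receptor, fell by 0.98, 1.05 and 0.92 in those same 3 conditions, and these falls remained called after the correction. It also fell with 2R6R-HNK (log2 -0.35, adjusted p = 1.63e-06) and E2+ketamine (log2 -0.36, adjusted p = 1.62e-06), but was at 0.046 without a call with 2R6R-HNK and turned to 0.15 with E2+ketamine after the correction. With ketamine NRP1 went from 0.04 without a call to 0.23. Among 13 related ligands and receptors tested, 4 to 7 were higher and 1 to 3 lower. As counted, the receptor gene FLT4 was at 58.4 CPM in vehicle and 58.3 CPM with E2+2S6S-HNK (means of 2). It was at 68.6 to 90.4 CPM in the other conditions with a drug. After the correction FLT4 was called lower in all but E2+ketamine (log2 -0.319 to -0.162). VEGFB was then called higher in all but 2R6R-HNK (log2 0.1 to 0.306). FLT3LG (log2 0.80 to 1.41) and PGF (log2 0.55 to 1.13), ligands of related receptors, rose in all 6, with and without the correction. KITLG, the ligand of KIT, was lower in 4 of 6, by 1.07 on the log2 scale with E2+2R6R-HNK, and was not called lower in any after the correction, where it was higher with E2+ketamine (log2 0.59, adjusted p = 0.0388).

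The genes whose pattern was most like that of each member were sought among 10373 or 10374 genes with a mean of at least 5 CPM, by Pearson correlation of log2 CPM over the 8 condition means. For PDGFB these were ACBD4 (r = 0.993), CES2 (r = 0.989), DMPK (r = 0.986), SEMA4B (r = 0.986) and ARHGEF25 (r = 0.985). For PDGFRB they were SEMA3F (r = 0.995) and ABR (r = 0.982), for PDGFC FBXL17 (r = 0.973) and CGNL1 (r = 0.965), and for PDGFRA NDUFAF1 (r = 0.990) and TMEM70 (r = 0.989). PDGFA was followed by LOC283683 (r = 0.910) and TRIM9 (r = 0.888), PDGFRL by MAGEH1 (r = 0.892) and TIRAP (r = 0.883), and PDGFD by PLAGL1 (r = 0.930) and CYP2U1 (r = 0.866). The 8 points share libraries, depth and base composition, and the values are given as a description. By Spearman correlation, CES2, SEMA3F, LOC283683 and TIRAP were again among the nearest genes kept. For PDGFB, PDGFRA and PDGFRB all genes kept were tied at r = 1, so the others named for these members may be tied with them.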

How the data were processed

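RNA-seq libraries of HMC3 cells (8 conditions, 2 libraries each) were sequenced by the authors as paired 100 bp reads on an amplified cDNA kit. The authors aligned them to hg19 with TopHat and Bowtie 2 and deposited raw counts per gene, made with featureCounts from uniquely mapped, non-discordant read pairs. The submitters' processing notes give TopHat2 2.0.14, Bowtie2 2.2.6 and featureCounts 1.4.6, and strand use is not stated. Of counts from 1 to 9, 65.8% were even, so halved counts were run as an alternative.

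Counts were tested here with edgeR 4.0.16 (R 4.3.3) across 16004 of 25370 genes passing filterByExpr, with TMM scaling, 1 model of 8 groups (8 residual degrees of freedom), the quasi-likelihood F-test and Benjamini-Hochberg adjustment per comparison. Every adjusted p is from this test unless DESeq2 1.42.0 is named, and "called" means under 0.05. An interaction is the E2 effect with a drug minus that without. GC content and exon length (GENCODE on GRCh37, available for 95.9% of tested genes) were corrected per library by loess (span 0.5) as an offset. Such a correction also takes out any real change that follows GC content. The test was tested on simulated data. In a simulated ketamine against vehicle comparison of 15731 genes, edgeR recovered 55% of 100 genes changed by 0.3 and 80% of 100 changed by 1 on the log2 scale, with 12 false calls in all. The simulation changed few genes, as many up as down, with no shift by GC content. In the data far more genes were called and values moved with GC content, so these rates may not carry over. Libraries held 55300614 to 81646165 counts, and the common biological coefficient of variation was 2.81%.

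The members and gene lists were chosen with earlier results of these data known. All members are named. From each list, up to 4 genes are named, those called with an absolute log2 fold change of at least 1 in any tested comparison with vehicle and a mean of at least 1 CPM. LRP1, SPARC, FURIN, PLAU, RGS5, MCAM, CSPG4, DES, FLT4 and VEGFB fall outside this rule and were named after their values were seen. So were FOSL1, JUN, IER2, CCND1, ODC1, SPRED1, CBLB, SH2B3 and PTPN2. Nearest genes were ranked by Pearson correlation over condition means of log2 CPM (prior count 2). Alternatives were DESeq2, fewer libraries in the fit, other filters and scalings, a replicate block, the GC content and length correction, halved counts and each library left out.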

Additional observations from a re-analysis of the deposited data

Results flagged for a closer look

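Interactions of E2 with a drug are listed here as descriptions. They were picked by the edgeR term or, for PDGFB, because the libraries moved in opposite directions. Being picked is not a result. Each term holds the E2 contrast that chose the family, so no p-value is given and nothing is supported with them. The interactions of a member share its E2 effect without a drug, from the same vehicle and E2 libraries, so they are not separate results. PDGFRB was at -0.411 with ketamine, -0.591 with 2R6R-HNK and -0.858 with 2S6S-HNK (SE 0.037 for each), and at -0.28, -0.34 and -0.32 after the GC content and length correction. PDGFC was at -0.557 with ketamine (SE 0.068) and 0.216 with 2S6S-HNK (SE 0.069), and the latter turned to -0.335 under the correction. PDGFA was at -0.73 with ketamine and -0.651 with 2R6R-HNK (SE 0.247 for each), and at -0.625 and -0.292 after the correction. Without vehicle replicate 1 the same terms were at -0.587 and -0.507. PDGFRA was at 0.851 with 2S6S-HNK (SE 0.272), and at 0.36 after the correction. For PDGFB with 2S6S-HNK the interaction was -1.488 (SE 0.122), since both E2 libraries were above both vehicle libraries and both E2+2S6S-HNK libraries were below both 2S6S-HNK libraries. That difference was not tested, because PDGFB was chosen by its E2 effect, and was -0.87 after the correction.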

How the results depend on the processing

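The replicate numbers did not pair the libraries, as the correlations of their deviations from group means lay between -0.0258 and 0.0451. With replicate number as a block, 0 of 94 calls and directions of members changed (the replicate block gave 1.292 for PDGFB with ketamine against vehicle). The same call and direction (or, for values without a test, a shift of less than 1 SE) were kept by 92 of 94 member values with no filter, 92 in fits of the compared groups only, 92 with DESeq2 size factors (RLE), 88 with upper-quartile scaling, 87 with DESeq2, 93 with halved counts and 83 of 86 with at least 10 counts in every library, but by 51 of 94 with the GC content and length correction. Of 420 values with 1 library left out, 358 were kept by the same measure, with the lone library of a group assumed to vary like the other groups. Upper-quartile scaling raised the median of all genes as compared to vehicle by 0.061 to 0.105. PDGFD could not be given with at least 10 counts in every library. Low counts limit PDGFD most, then PDGFA and PDGFRA.

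As compared to vehicle, values that reversed under the GC content and length correction (with the block in parentheses where it differs) were -0.15 (-0.148), -0.021 (-0.019), -0.334, -0.577 (-0.576) and -0.464 (-0.461) for PDGFA with E2, 2R6R-HNK, 2S6S-HNK, E2+ketamine and E2+2R6R-HNK. They were 0.306, 0.183, 0.044 (0.043), 0.05 and 0.015 for PDGFC with E2, 2R6R-HNK, 2S6S-HNK, E2+ketamine and E2+2S6S-HNK, and 0.256 (0.3), 0.079 (0.077), 0.343 (0.32) and 0.118 (0.119) for PDGFD with E2, 2R6R-HNK, E2+ketamine and E2+2R6R-HNK. PDGFRA with 2R6R-HNK was at 0.075 (0.077), PDGFRB with E2+2S6S-HNK at -0.065 and PDGFRL with 2S6S-HNK at 0.017 (0.018). Between drugs, PDGFB was at 0.055 (0.054) for ketamine against 2S6S-HNK and 0 (-0.001) for E2+ketamine against E2+2S6S-HNK, PDGFRB at 0.041 in the former and PDGFC at 0.036 (0.035) in the latter. For E2 within ketamine, PDGFB was at -0.237 and PDGFRB at -0.097, and PDGFC was at -0.029 for E2 within 2S6S-HNK and -0.335 for their interaction. PDGFRL with 2S6S-HNK, at -0.006, was at 0.024 with DESeq2, RLE or the compared groups only, 0.006 with at least 10 counts and 0.069 with upper-quartile scaling, which also put PDGFC with E2 at 0.009. With libraries left out, PDGFA ranged from -0.048 to 0.252 with E2+2R6R-HNK and from -0.046 to 0.254 with E2+ketamine, PDGFD from -1.118 to 0.343 with E2+ketamine and from -0.727 to 0.296 with E2, and PDGFRL from -0.075 to 0.055 with 2S6S-HNK.

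Only the larger changes in counts of members called are listed here, and smaller ones occurred in other comparisons. Counts of 5 with E2+ketamine and with E2+2S6S-HNK as compared to vehicle were 3 in both with the GC content and length correction, with or without the block. The correction also lost the calls of PDGFA and PDGFRA with ketamine, PDGFA with 2R6R-HNK, PDGFC with 2S6S-HNK, and PDGFC and PDGFRB with E2+2R6R-HNK. With 2R6R-HNK PDGFC stayed called but turned from lower to higher. For ketamine against 2R6R-HNK the correction gave 5 in place of 3. For E2+ketamine against E2+2R6R-HNK it gave 1 in place of 0, as did DESeq2, RLE and the compared groups only. For ketamine against 2S6S-HNK, 5 were called, with 2 by DESeq2, 3 with at least 10 counts and 1 to 3 with libraries left out. Left-out libraries also changed the counts for 2R6R-HNK against 2S6S-HNK and for E2 within 2R6R-HNK. The cause was not tested.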

Other observations

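Proteases that process PDGF ligands were all above the filter, 7 of 7. With ketamine 3 were higher and 0 lower, with 2R6R-HNK 2 and 0, with 2S6S-HNK 4 and 1, with E2+ketamine 5 and 0, with E2+2R6R-HNK 3 and 1, and with E2+2S6S-HNK 1 and 1, where 24.0% to 34.3% of all genes were higher and 32.5% to 37.4% lower over these comparisons. FURIN, a convertase that processes PDGF precursors, and PLAU, the urokinase that can activate PDGF-D, were singled out after their values were seen. FURIN rose in 5 of 6 comparisons by edgeR, from 0.16 on the log2 scale with ketamine (adjusted p = 0.000651) to 0.63 with E2+ketamine (adjusted p = 4.97e-19), and was at -0.06 with E2+2S6S-HNK (adjusted p = 0.258). All 5 rises turned under the GC content and length correction, to between -0.22 and -0.07. With E2+2S6S-HNK FURIN was then lower (log2 -0.368, adjusted p = 2.04e-14). PLAU rose with ketamine (log2 0.52, adjusted p = 2.99e-10) and E2+ketamine (log2 0.40, adjusted p = 1.5e-07), and fell with 2S6S-HNK (log2 -0.29, adjusted p = 0.000149), E2+2R6R-HNK (log2 -0.49, adjusted p = 3.15e-09) and E2+2S6S-HNK (log2 -0.53, adjusted p = 1.32e-09). After the correction the rise with ketamine was 0.33, that with E2+ketamine was 0.039 without a call, and the 3 falls were 0.55 to 0.78. PLAU was then also lower with 2R6R-HNK (log2 -0.249, adjusted p = 0.00077).

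Of 11 negative regulators of the pathway, 2 were higher and 3 lower with ketamine, 0 and 6 with 2R6R-HNK, 2 and 6 with 2S6S-HNK, 2 and 7 with E2+ketamine, 2 and 5 with E2+2R6R-HNK, and 1 and 8 with E2+2S6S-HNK, beside the same shares of all genes. No gene of this list met the rule for naming. After the GC content and length correction SPRED1 was called higher in all 6 (log2 0.17 to 0.432). CBLB was called higher in all but E2+2S6S-HNK (log2 0.486 to 0.675), and SH2B3 and PTPN2 were called lower in all 6 (log2 -0.493 to -0.189). The counts of higher genes thus do not hold under the correction. These 4 genes were named after their values were seen. Of 6 pericyte markers, 3 or 4 were higher and 1 lower in each comparison. The one lower was RGS5 (log2 -0.83 to -0.50) in all but E2+2S6S-HNK, where RGS5 was at -0.42 (adjusted p = 0.0974) and MCAM fell by 0.21 (adjusted p = 3.28e-10). After the correction RGS5 was between -0.11 and 0.080 and not called in any of the 6, and MCAM was called lower in all but E2+ketamine (log2 -0.47 to -0.14). CSPG4, of the same list, was then called lower in all 6 (log2 -0.285 to -0.183), and DES was lower with ketamine (log2 -0.729, adjusted p = 0.0294). The counts of higher and lower pericyte markers thus do not hold under the correction. RGS5, MCAM, CSPG4 and DES were also named after their values were seen. Among marker genes that met the rule, ANPEP, an aminopeptidase found on pericytes, rose in all 6 comparisons (log2 1.35 to 1.93) and also after the GC content and length correction. NOTCH3, a receptor of mural cells, rose in all 6 (log2 0.62 to 1.21), but was at 0.07 without a call with E2+ketamine after the correction (adjusted p = 0.124). MBP, a gene of oligodendrocytes, rose with 2S6S-HNK (log2 1.25, SE 0.172, adjusted p = 9.19e-09), E2+2S6S-HNK (log2 1.25, adjusted p = 9.47e-09), ketamine (log2 0.84) and E2+2R6R-HNK (log2 0.81), and remained called in these 4 after the correction (log2 0.64 to 1.22), with OLIG1 and OLIG2 at no more than 4 counts in any library.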
